A study of Mus musculus with 9 samples.

Results

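The genes described here are 44 lysosomal genes of mouse microglia. They were taken from the array by gene name and comprise 12 proteases, 12 glycosidases and sulfatases, 6 lipid enzymes and activators, 5 membrane proteins, 6 subunits or accessory proteins of the proton pump, and Tfeb, Grn and Dnase2a. They have 60 probes among the 55681 gene probes of the array, and all 44 were among the 24101 gene names kept for testing, out of 34650 on the array. Microglia were cultured from pooled brains of newborn fms-EGFP mice, a line whose Csf1r (c-fms) promoter drives the reporter EGFP in microglia and other macrophages, and grew with GM-CSF at 5 ng/ml for about 14 d. The 3 groups, all of this genotype and culture, were Control (unfed, 0 h), Ph3h and Ph24h, and the last 2 were fed for 3 h or 24 h with SH-SY5Y, a human neuroblastoma line labeled with CM-DiI and made apoptotic with staurosporine at 3 μM for 4 h. Each group had 3 arrays from independent experiments, and no unfed culture of 3 h or 24 h was analysed here, so feeding and time in culture cannot be told apart.

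Lysosomes are the acidic compartments in which microglia break down engulfed cells. A vacuolar proton pump acidifies them, soluble hydrolases digest protein, sugar chains, lipids and DNA, and heavily glycosylated membrane proteins such as LAMP1 line the membrane. Tfeb encodes a transcription factor known to activate many lysosomal genes through E-box elements in their promoters.

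Levels are log2 intensities relative to the 75th percentile of the same array, so a level of 0 is that percentile, and a difference of 1 is a 2-fold difference. Levels of different probes are not compared, because probes differ in brightness for the same amount of RNA. Differences between groups were tested with limma over all 24101 genes, and a gene was called at a Benjamini-Hochberg adjusted p below 0.05. The SE of a difference for these genes ranged from 0.0486 to 0.1854, and every brightest member probe was well above background on all 9 arrays. In bulk RNA, fewer cells of a type and less RNA per cell cannot be told apart.

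The 75th percentile of the intensity was 355.5 to 472.4 on the Control arrays, 184.9 to 211.2 on Ph3h and 156.3 to 161.4 on Ph24h, and no spot was saturated. Of 14 microglial marker genes fixed as a list, 14 were kept and 13 were well above background on all 9 arrays, with summed linear levels of 1220 to 1275, 1785 to 1913 and 998 to 1029 in Control, Ph3h and Ph24h. At 3 h, 9 of the 14 rose and 3 fell (median log2 change 0.49), and at 24 h 2 rose and 10 fell (median -0.62), the medians keeping their sign under all 5 scalings, and the part of these changes in the lysosomal results was not tested. Of 16 neuronal and neuroendocrine markers, 13 were kept, and their sum went from 4.351–5.275 in Control to 1486–1617 in Ph3h and 2248–2592 in Ph24h, with 10 of 13 higher at both times. Sums of linear levels follow the brightest gene of a list, here Vgf, with mean log2 levels of -2.49, 10.41 and 11.13 in the 3 groups. Between the fed groups, 3 of the 13 were higher and 1 lower in Ph24h, and 9 did not pass. Chga, Scg2, Isl1, Nefl and Nefm were above background on no Control array, and Dbh, Phox2a and Syt1 were not kept. The sums of 7 measured astrocyte markers of 8 were 14.98–19.25, 16.48–18.78 and 17.29–17.62, with Gja1 not kept, those of 9 oligodendrocyte-lineage markers of 10 were 266.1–326, 420.4–477.6 and 211–244.9, with Pdgfra not kept and Mobp and Olig2 above background on no Control array, and those of 7 fibroblast and endothelial markers of 9 were 1.212–1.929, 1.606–2.024 and 1.542–2.05, with Pdgfrb and Cldn5 not kept and Lum above background on no Control array. The fed cultures thus held signal of the neuronal list that Control did not, and its part in the lysosomal results was not tested.

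More of the 44 genes were lower than higher after feeding, by small amounts at 3 h and by larger ones at 24 h. Called higher at 3 h were 7 genes, called lower 18, and 19 did not pass. The corresponding numbers at 24 h were 4, 30 and 10. The background over all genes was 27.9% called higher and 25.9% called lower at 3 h, and at 24 h 29.9% and 33.2%. At both times the members' falls stood above the background share and their rises below it. The median log2 change of the 44 was -0.15 at 3 h and -0.39 at 24 h, beside 0.07 and 0.0065 over all genes. In single arrays, the median difference of the members from their Control means was -0.1745 to -0.0914 in Ph3h and -0.4026 to -0.3583 in Ph24h. Both comparisons use the same 3 Control arrays. By their pair of calls, 15 genes were lower at both times, 11 lower at 24 h only, 8 passed at neither time, and 6 were called in opposite directions. These pairs of calls depended on the scaling, with 25 to 28 genes lower at both times, 8 to 13 lower at 24 h only, 2 or 3 passing at neither time and 2 to 4 with opposite calls under the 4 other scalings.

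Which genes were called depended on how the arrays were scaled. Falls called with the 75th percentile were mostly called under the other scalings too, which added further falls, and most of the rises were not. Under all 5 scalings tried (75th percentile, quantile, median, normexp background correction with quantile, and the authors' value table), 18 of the 18 falls at 3 h and 29 of the 30 at 24 h were called. Of the genes that did not pass, 7 at 3 h (Gla, Asah1, Smpd1, Lipa, Lamp2, Cd68 and Atp6v0d1) and 5 at 24 h (Ctsa, Ctsd, Ctsl, Ctss and Arsb) were called lower under all 4 other scalings. For these 12 results the lack of a call holds with the 75th percentile alone. At least 1 other scaling called lower 13 of the 19 genes that did not pass at 3 h, and all 10 at 24 h. Of the rises, Ctsc alone was called under all 5 at 3 h and Ctsk alone at 24 h. Lamp1 was called higher at both times with the 75th percentile and lower at both times with quantile normalization, and Ctsz was called in both directions at 3 h. With quantile normalization, 2 members were higher and 32 lower at 3 h. The split of all genes then moved to 23.24% higher and 30.95% lower at 3 h and 24.6% and 36.7% at 24 h, and with median scaling to 17.92% and 35.38% at 3 h and 15.93% and 50.87% at 24 h. Median scaling put the median of all genes at -0.18 and -0.50 and quantile normalization at -0.07 and -0.14. Relative to that median, the members' median lay at -0.22 with the 75th percentile, -0.22 with the median and -0.23 with quantile normalization at 3 h, and at -0.39, -0.39 and -0.37 at 24 h. Before scaling, Lamp1 had a mean scanner intensity of 294700 on the Control arrays, 164300 at 3 h and 140400 at 24 h, and that of Ctsb was 287700, 208000 and 172500, so both were lower in the fed arrays by less than the 75th percentile was. The part of the overall drop in intensity in these rises was not tested.

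**Figure D1:**
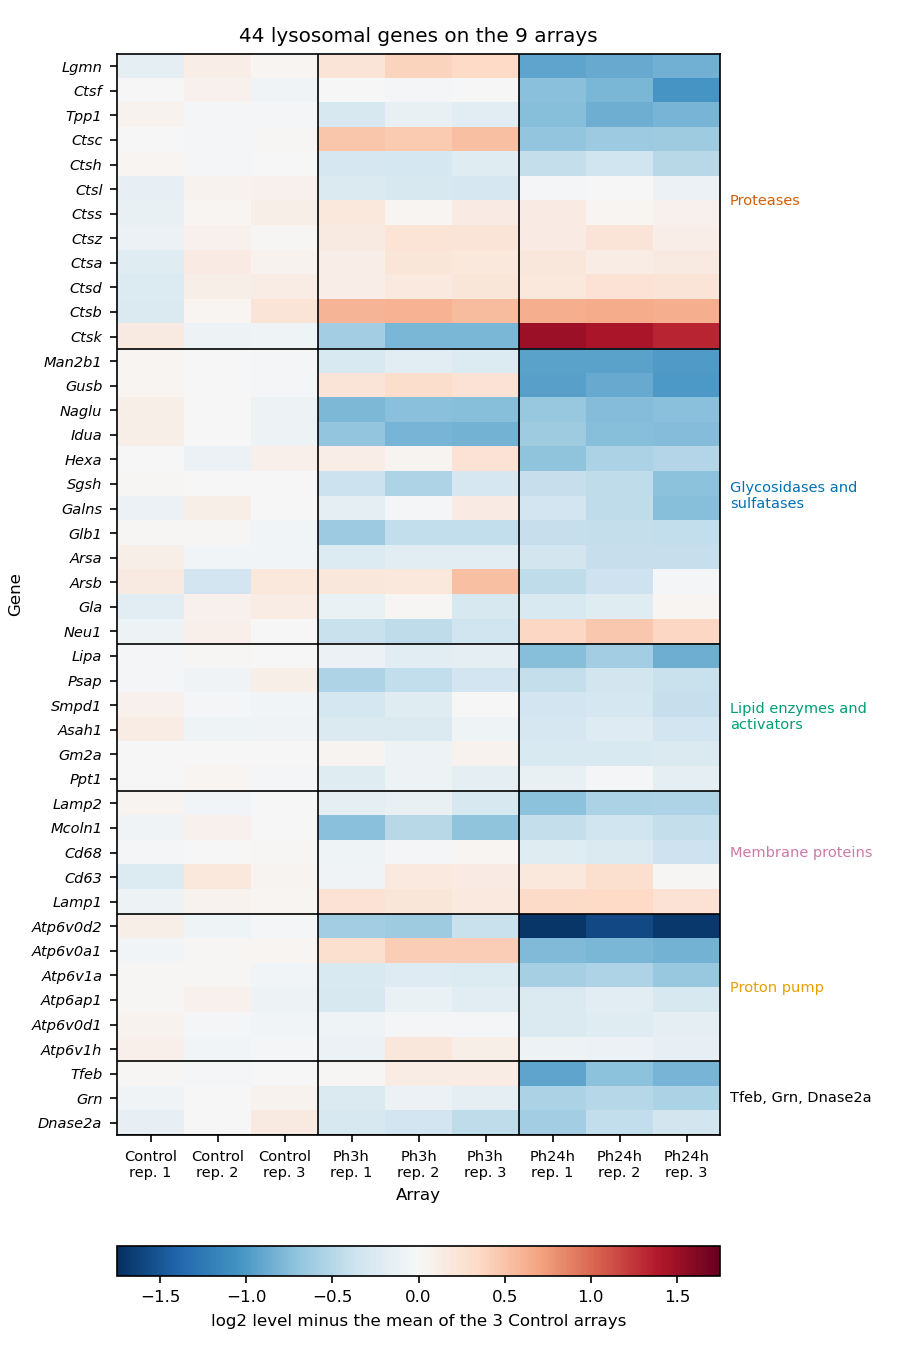
Each row is 1 of the 44 genes and each column 1 of the 9 arrays, and color gives the log2 level minus the mean of the 3 Control arrays (blue lower, red higher). Rows are grouped by role and ordered by the change at 24 h. The 3 Ph24h columns are mostly blue, with Ctsk the deepest red row.

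**Figure D2:**
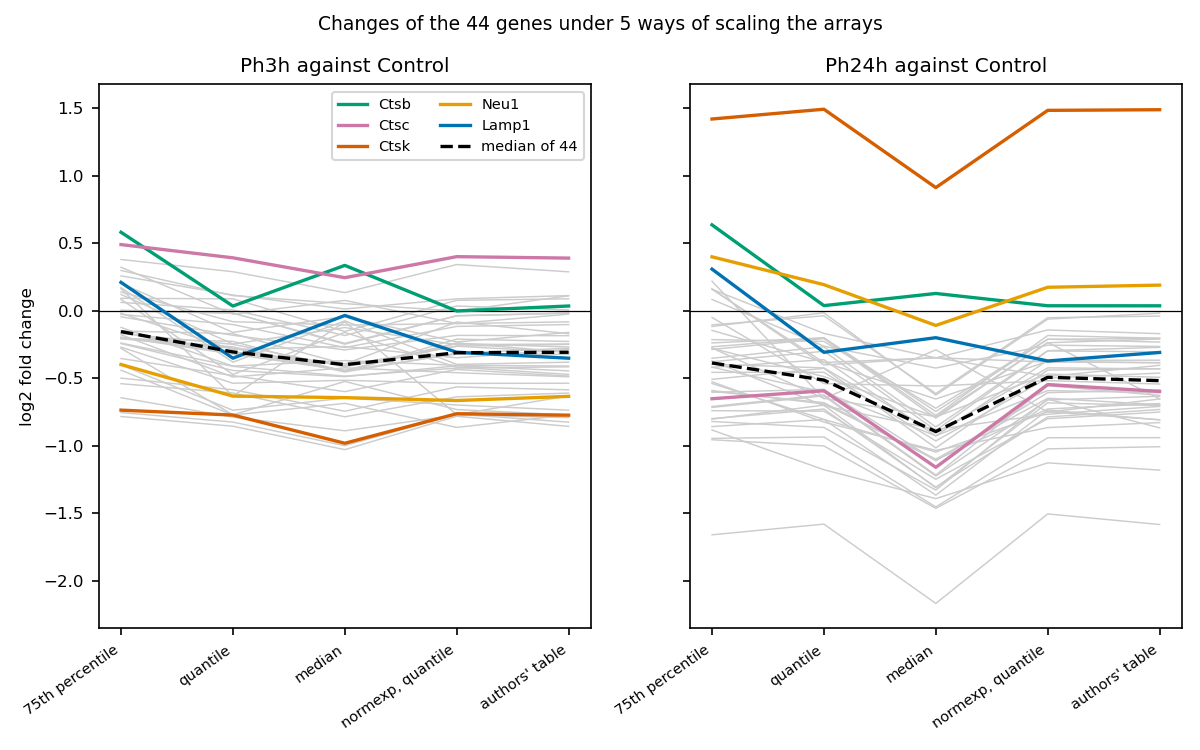
Lines connect the log2 fold change of each of the 44 genes under 5 ways of scaling the arrays, at 3 h (left) and 24 h (right), with 5 genes in color and the members' median dashed. Ctsk, Ctsc and the median keep their side of 0, while Lamp1 crosses it at both times and Neu1 crosses it at 24 h with median scaling.

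The proteases went in different directions. At 3 h, 4 of the 12 were higher and 4 lower, beside 27.9% and 25.9% of all genes. At 24 h these were 2 and 5, beside 29.9% and 33.2%. The median changes were 0.14 and 0.02. Under the 4 other scalings, 1 or 2 were higher and 4 to 8 lower at 3 h, and 1 was higher and 9 or 10 lower at 24 h, with medians below 0. Ctsk, the collagen-degrading cysteine cathepsin best known from osteoclasts, had levels of 3.98, 3.74 and 3.75 in Control, 3.22, 3.03 and 3.03 in Ph3h and 5.33, 5.26 and 5.16 in Ph24h. All Ph3h arrays lay below all Control arrays, and all Ph24h arrays above them. Its level fell by 0.73 on the log2 scale at 3 h (SE 0.094, limma adjusted p = 0.000439), was 2.68-fold that of Control at 24 h (log2 1.42, adjusted p = 1.24e-05) and 4.46-fold that of Ph3h.

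Ctsc and Lgmn moved the other way. Ctsc encodes the dipeptidyl peptidase that activates granule serine proteases and had levels of 5.18, 5.16 and 5.20 in Control, 5.67, 5.65 and 5.71 in Ph3h and 4.49, 4.55 and 4.56 in Ph24h. The 3 groups did not overlap, with a log2 change of 0.49 at 3 h (adjusted p = 0.000117) and -0.65 at 24 h (adjusted p = 2.22e-05), but its second probe was called lower at 3 h, as given with the probe pairs. Lgmn encodes legumain, an asparaginyl endopeptidase that processes cathepsins, and had levels of 8.59, 8.86 and 8.79 in Control, 8.98, 9.13 and 9.10 in Ph3h and 7.82, 7.87 and 7.90 in Ph24h. Ph3h lay above and Ph24h below Control, with changes of 0.32 (adjusted p = 0.0125) and -0.88 (adjusted p = 6.68e-05), though the 3 h change was -0.02 with quantile normalization and not called there.

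Ctsb, a cysteine cathepsin, was higher at both times with the 75th percentile. Its levels were 9.20, 9.48 and 9.67 in Control, 10.04, 10.06 and 10.00 in Ph3h and 10.08, 10.09 and 10.09 in Ph24h. The fed arrays were all above Control and close to each other, with changes of 0.58 (SE 0.11, adjusted p = 0.0033) and 0.64 (adjusted p = 0.00172), and 0.04 at both times with quantile normalization, where neither was called. Ctsl, the cathepsin L gene, had levels of 9.20, 9.41 and 9.42 in Control, 9.09, 9.06 and 9.06 in Ph3h and 9.31, 9.34 and 9.25 in Ph24h. It was lower at 3 h by a log2 change of -0.28 (adjusted p = 0.0136), while Ph24h overlapped Control, with a change of -0.05 (adjusted p = 0.59). Under the 4 other scalings Ctsl was called lower at 24 h as well, at -0.56 to -0.52. Without Control replicate 2 the 3 h call of Ctsl was lost (adjusted p = 0.0512). Ctsf, the cathepsin F gene, had levels of 1.79, 1.88 and 1.73 in Control, 1.81, 1.78 and 1.80 in Ph3h and 1.07, 0.99 and 0.76 in Ph24h, so that only the Ph24h arrays stood apart, with a change of -0.86 (adjusted p = 9.99e-05).

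Of the other proteases, Tpp1 (tripeptidyl peptidase) and Ctsh (an aminopeptidase) were lower at both times, with changes of -0.20 and -0.80 for Tpp1 and -0.27 and -0.42 for Ctsh. Ctsz was higher at 3 h by 0.20 (adjusted p = 0.0319) and had a change of 0.16 at 24 h (adjusted p = 0.0647). Ctsa, Ctsd and Ctss, which encode the protective protein of the sialidase complex, the main aspartic protease and the cathepsin of antigen processing, did not pass at either time, with changes of 0.17 and 0.16, 0.17 and 0.22, and 0.12 and 0.09. All of these were called lower at 24 h under the 4 other scalings, with quantile normalization at -0.40, -0.65 and -0.26. At 3 h each was called lower under 3 of the 4 others, with quantile normalization at -0.38, -0.63 and -0.24.

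Most glycosidases and sulfatases were lower. At 3 h, 1 of the 12 was higher and 7 were lower, and at 24 h 1 rose and 9 fell, with median changes of -0.22 and -0.52. The shares of all genes called lower were 25.9% at 3 h and 33.2% at 24 h, and called higher 27.9% and 29.9%. Neu1, the lysosomal sialidase, fell and then rose. Its levels were 7.23, 7.40 and 7.31 in Control, 6.92, 6.87 and 6.97 in Ph3h and 7.68, 7.79 and 7.68 in Ph24h, with no overlap between the groups. The changes were -0.40 (adjusted p = 0.00178) and 0.40 (adjusted p = 0.00135), and the rise at 24 h became -0.11 and uncalled with median scaling. Gusb, which encodes beta-glucuronidase, had levels of 6.03, 6.01 and 5.97 in Control, 6.23, 6.31 and 6.25 in Ph3h and 5.06, 5.12 and 5.00 in Ph24h. Ph3h was above and Ph24h below Control, by 0.26 (adjusted p = 0.00526) and -0.94 (adjusted p = 6.64e-06), and the 3 h rise was 0.12 and uncalled with quantile normalization.

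Idua and Naglu encode enzymes that remove sugars from heparan sulfate. Naglu had levels of 4.53, 4.42 and 4.35 in Control, 3.65, 3.70 and 3.69 in Ph3h and 3.78, 3.67 and 3.71 in Ph24h. It was already at its low level at 3 h, with changes of -0.75 (adjusted p = 5.7e-05) and -0.71 (adjusted p = 5.35e-05). The brighter probe of Idua had levels of 4.56, 4.45 and 4.37 in Control, 3.77, 3.64 and 3.63 in Ph3h and 3.84, 3.72 and 3.71 in Ph24h, a change of -0.78 and -0.71, but its second probe moved the other way, as given with the probe pairs. Man2b1, the lysosomal alpha-mannosidase, had levels of 6.58, 6.53 and 6.52 in Control, 6.28, 6.34 and 6.30 in Ph3h and 5.61, 5.61 and 5.55 in Ph24h. It fell in steps, with changes of -0.24 (adjusted p = 0.0052) and -0.95 (adjusted p = 4.02e-06).

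Glb1 (beta-galactosidase) and the sulfatases Arsa and Sgsh were lower at both times, with changes of -0.50 and -0.42, -0.21 and -0.38, and -0.40 and -0.52. Hexa (the alpha subunit of beta-hexosaminidase) and Galns (a sulfatase) were lower at 24 h only, with changes of 0.14 and -0.59 for Hexa and -0.03 and -0.51 for Galns. Gla (alpha-galactosidase) and Arsb (a sulfatase) did not pass at either time, with changes of -0.12 and -0.14 and of 0.30 and -0.27, although the other scalings all called Gla lower at 3 h and Arsb at 24 h.

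Among the 6 lipid enzymes and activators, 1 was lower at 3 h and 5 at 24 h, beside 25.9% and 33.2% of all genes. None was higher, beside 27.9% and 29.9%. Under the other scalings 4 to 6 were lower at each time. Psap, the precursor of the saposins that present sphingolipids to their hydrolases, had levels of 8.76, 8.74 and 8.91 in Control, 8.26, 8.37 and 8.46 in Ph3h and 8.39, 8.49 and 8.42 in Ph24h. Fed arrays were all below Control, with changes of -0.44 at 3 h (adjusted p = 0.0019) and -0.37 at 24 h (adjusted p = 0.00362). Lipa, the acid lipase that cleaves cholesteryl esters, had levels of 6.09, 6.13 and 6.11 in Control, 6.01, 5.92 and 5.94 in Ph3h and 5.36, 5.50 and 5.26 in Ph24h. Its 3 h change of -0.16 did not pass (adjusted p = 0.101), and that of -0.74 at 24 h did (adjusted p = 7.6e-05). The 3 h change was called lower under the 4 other scalings, at -0.40 to -0.26. Smpd1 (acid sphingomyelinase), Asah1 (acid ceramidase) and Gm2a (the GM2 activator) were lower at 24 h, with changes of -0.35, -0.28 and -0.27, the first 2 also at 3 h under the other scalings, and Ppt1 (palmitoyl-protein thioesterase) did not pass, at -0.15 and -0.10. The 24 h fall of Asah1 was called under only 3 of the 5 scalings, at -0.20 with quantile normalization.

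The 5 membrane proteins included 1 rise at both times, 1 fall at 3 h and 3 falls at 24 h. Of all genes, 27.9% were called higher and 25.9% lower at 3 h, and 29.9% and 33.2% at 24 h. With quantile normalization all 5 membrane proteins fell at both times, beside 30.95% of all genes at 3 h and 36.7% at 24 h. Lamp1 had levels of 9.39, 9.55 and 9.51 in Control, 9.73, 9.70 and 9.66 in Ph3h and 9.81, 9.83 and 9.73 in Ph24h. Fed arrays lay above Control by 0.21 (adjusted p = 0.0228) and 0.31 (adjusted p = 0.00348), whereas with quantile normalization the changes were -0.35 and -0.31 and were called lower. The 3 h call was also lost without Control replicate 1, Ph3h replicate 1 or Ph3h replicate 2, with changes of 0.1650 to 0.2445 over all arrays left out. Lamp2, the other major lysosomal membrane protein, had levels of 5.55, 5.46 and 5.51 in Control, 5.34, 5.37 and 5.23 in Ph3h and 4.79, 4.96 and 4.96 in Ph24h. Its change at 3 h was -0.19 (adjusted p = 0.0509) and at 24 h -0.60 (adjusted p = 0.00022), and the 3 h change was called lower under the 4 other scalings, at -0.44 to -0.32.

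Mcoln1, the lysosomal calcium channel TRPML1, had levels of 6.18, 6.32 and 6.24 in Control, 5.52, 5.76 and 5.54 in Ph3h and 5.83, 5.90 and 5.83 in Ph24h. It was lowest at 3 h, with changes of -0.64 (adjusted p = 0.000353) and -0.39 (adjusted p = 0.00335). Cd68, the macrophage sialoprotein macrosialin, had levels of 7.77, 7.79 and 7.82 in Control, 7.72, 7.77 and 7.83 in Ph3h and 7.59, 7.54 and 7.42 in Ph24h. Ph3h overlapped Control, at -0.02 (adjusted p = 0.83), and Ph24h was lower, at -0.28 (adjusted p = 0.00563). The 4 other scalings called Cd68 lower at 3 h, at -0.35 to -0.26, as did its second probe, at -0.26 (adjusted p over probes = 0.012) and at 24 h -0.70 (adjusted p = 6.79e-05). Cd63, a tetraspanin, did not pass, at 0.09 and 0.16.

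Of the 6 pump genes, 1 was higher and 3 lower at 3 h, and 5 were lower and none higher at 24 h. All genes were split 27.9% higher and 25.9% lower at 3 h, and 29.9% and 33.2% at 24 h. Atp6v0d2, a subunit with high expression in osteoclasts and macrophages, had levels of 4.50, 4.32 and 4.38 in Control, 3.79, 3.78 and 4.01 in Ph3h and 2.70, 2.81 and 2.71 in Ph24h. The groups were fully apart, and its change of -1.66 at 24 h left 31.7% of the Control level (SE 0.086, adjusted p = 3.92e-06), after -0.54 at 3 h (adjusted p = 0.00136). Its second probe changed by -0.25 (adjusted p = 0.0976) and -1.74 (adjusted p = 1.3e-05).

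Atp6v0a1, a membrane subunit, had levels of 4.99, 5.05 and 5.07 in Control, 5.32, 5.47 and 5.47 in Ph3h and 4.27, 4.24 and 4.21 in Ph24h. It was higher at 3 h by 0.38 (adjusted p = 0.00143) and lower at 24 h with a change of -0.80 (adjusted p = 2.61e-05). The rise was 0.14 and uncalled with median scaling. Its second probe, near background, was called higher at 24 h, at 1.17, as given with the probe pairs. Atp6v1a, the catalytic subunit, had levels of 6.83, 6.82 and 6.75 in Control, 6.54, 6.58 and 6.57 in Ph3h and 6.22, 6.27 and 6.14 in Ph24h. It fell stepwise, with changes of -0.24 (adjusted p = 0.00759) and -0.60 (adjusted p = 6.25e-05). Atp6ap1 was lower at both times, with changes of -0.19 and -0.24, Atp6v0d1 at 24 h, with -0.21, and at 3 h under the 4 other scalings alone, and Atp6v1h at neither, with 0.06 and -0.11.

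Tfeb, Grn and Dnase2a were all lower at 24 h. Tfeb had levels of 0.16, 0.12 and 0.16 in Control, 0.17, 0.28 and 0.27 in Ph3h and -0.77, -0.57 and -0.67 in Ph24h. Its change at 3 h was 0.09 (adjusted p = 0.288), and at 24 h -0.82, or 56.7% of Control (adjusted p = 3.81e-05). Grn, which encodes progranulin, had levels of 8.15, 8.20 and 8.26 in Control, 7.95, 8.11 and 8.03 in Ph3h and 7.65, 7.71 and 7.65 in Ph24h. It changed by -0.18 (adjusted p = 0.0458) and -0.54 (adjusted p = 2e-04), and its 3 h call was lost on leaving out any array but Ph3h replicate 2, and with the slide as a block (adjusted p = 0.0609).

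Dnase2a, the acid DNase that digests the DNA of engulfed cells, had levels of 5.64, 5.79 and 5.95 in Control, 5.52, 5.46 and 5.34 in Ph3h and 5.18, 5.36 and 5.48 in Ph24h. Fed arrays were below Control, with changes of -0.35 (adjusted p = 0.0269) and -0.45 (adjusted p = 0.00767). Without Control replicate 2 or 3, or Ph3h replicate 2 or 3, its 3 h call was lost, with adjusted p up to 0.0838.

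**Figure D3:**
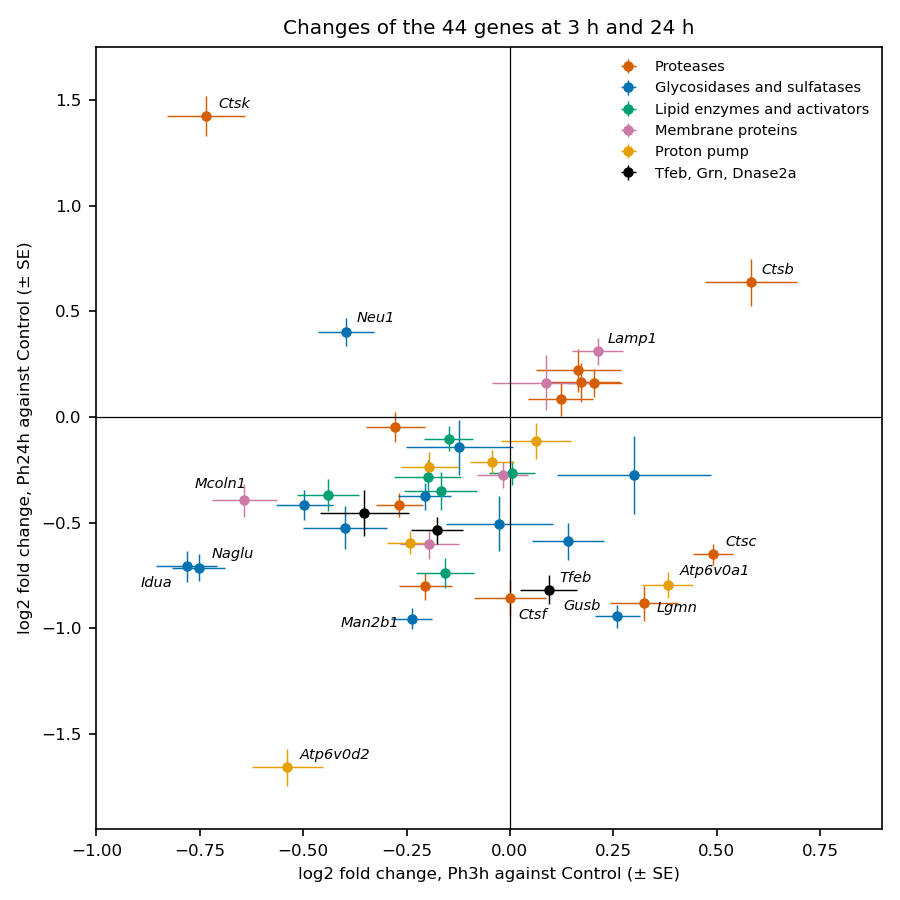
Points give the log2 fold change of each of the 44 genes at 3 h (x axis) and 24 h (y axis) against Control, with SE bars, colored by role. Ctsk and Neu1 lie in the upper left, Ctsc, Lgmn, Gusb and Atp6v0a1 in the lower right, and Atp6v0d2 is the lowest point. Both axes share the Control arrays.

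**Figure D4:**
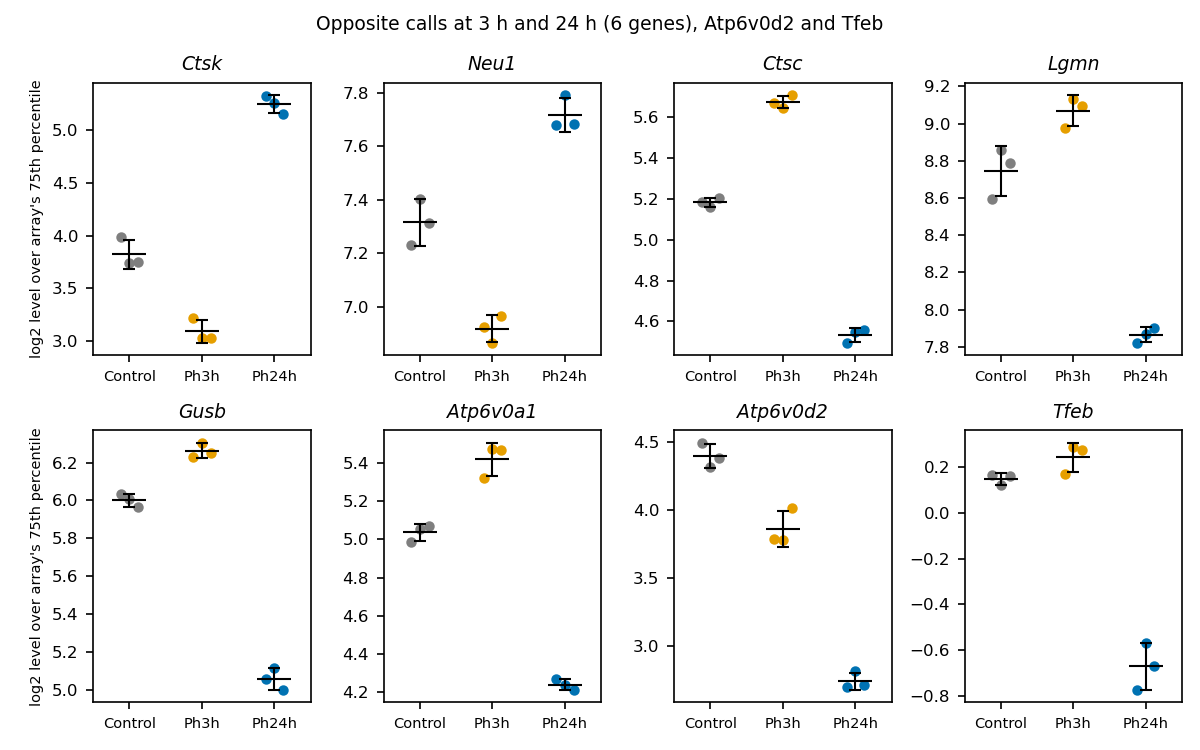
Dots are the log2 levels of single arrays in Control, Ph3h and Ph24h, and bars the group mean ± SD (n = 3), for the 6 genes called in opposite directions at 3 h and 24 h and for Atp6v0d2 and Tfeb. The y axes do not start at 0 and differ between panels. In all 8 panels the Ph24h arrays are apart from Control and Ph3h.

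Set against each other, the fed groups differed in 4 members higher and 19 lower in Ph24h than in Ph3h, with 21 not past the test, beside 20.3% higher and 24.0% lower of all genes. The median change of the members was -0.16, and 0.04 for all genes, but it was -0.02 with quantile normalization and -0.06 with normexp. The rises were Ctsk (2.16), Neu1 (0.80), Mcoln1 (0.25, adjusted p = 0.0366) and Ctsl (0.23, adjusted p = 0.0354, lost at 0.0514 with the slide as a block and 0.0655 with the replicate block), of which Ctsk and Neu1 were called under all 5 scalings. Leaving out Ph3h replicate 1 or 3, or any Ph24h array, left 2 rises. The 4 largest falls were Lgmn (-1.21), Gusb (-1.20), Atp6v0a1 (-1.18) and Ctsc (-1.14). The second probe of Ctsc was called higher instead, by 0.46 (limma adjusted p over probes = 0.00473). That of Gusb did not pass, at -0.18 (adjusted p = 0.0552), and that of Atp6v0a1 was lower, at -0.74 (adjusted p = 0.0389). Lamp2 fell on its brighter probe and was called higher on the other, by 0.28 (adjusted p = 0.00651).

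For 16 members the array holds 2 probes, and these did not always move together. At 3 h, 7 pairs had the same call and 2 had opposite calls, and at 24 h these numbers were 9 and 2. The pairs with opposite calls, Idua at both times, Ctsc at 3 h and Atp6v0a1 at 24 h, are shown here by the first 30 bases of each 60-base probe in lower case, 5′ to 3′, with their mm9 positions, since the direction of the gene depends on which probe is read.
Idua brighter probe, chr5:109113517-109113576 (+ strand): cccaaatgactctagcttgtaataaactga
Idua dimmer probe, chr5:109112893-109112952 (+ strand): cacacacacacacacacacagagtctaaat
Ctsc brighter probe, chr7:95458436-95458495 (+ strand): cgggtctttatcactcacagagtgatttag
Ctsc dimmer probe, chr7:95435428-95435487 (+ strand): ttgttcatgcagctgggaactgtgggaatg
Atp6v0a1 brighter probe, chr11:100924969-100925028 (+ strand): accctgtccaaggccttctgtccagacatc
Atp6v0a1 dimmer probe, chr11:100910359-100910418 (+ strand): actacttccagttccagctatttaaaattc

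The dimmer Idua probe, which starts with a run of ca repeats, had levels of 2.67, 2.80 and 2.82 in Control, 4.18, 4.40 and 3.89 in Ph3h and 4.14, 4.22 and 4.38 in Ph24h. It rose by 1.39 at 3 h (adjusted p over probes = 0.000124) and 1.48 at 24 h (adjusted p = 6.86e-05), against the falls of the brighter probe, though both carry the same transcript accession. The dimmer Ctsc probe, designed on an Ensembl transcript, had levels of 1.05, 1.07 and 1.03 in Control, 0.51, 0.41 and 0.30 in Ph3h and 0.72, 0.98 and 0.90 in Ph24h. It fell at 3 h by 0.64 (adjusted p = 0.000726) and did not pass at 24 h, at -0.18 (adjusted p = 0.113). That of Atp6v0a1, also from an Ensembl transcript, was near background, above it on 2 of 3 Control arrays. Its levels were -4.83, -4.20 and -4.20 in Control, -2.27, -2.73 and -2.50 in Ph3h and -2.96, -3.61 and -3.17 in Ph24h, a rise of 1.91 (adjusted p = 0.000416) and 1.17 (adjusted p = 0.00392).

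In other pairs only 1 probe passed. The dimmer probe of Ctsd was lower, with changes of -0.34 and -0.64, where the brighter did not pass, and that of Ctsa was lower at 24 h, at -0.75. Lamp2 was lower at 24 h on its brighter probe and at 0.04 (adjusted p = 0.597) on the other. The dimmer probe of Gm2a was not well above background on any Ph24h array and at least 1.419-fold lower there than in Control (adjusted p = 0.00066, measured means -3.27 and -5.66). The dimmer probe had the lower change in 11 of the 16 pairs at 3 h and in 8 at 24 h.

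**Figure D5:**
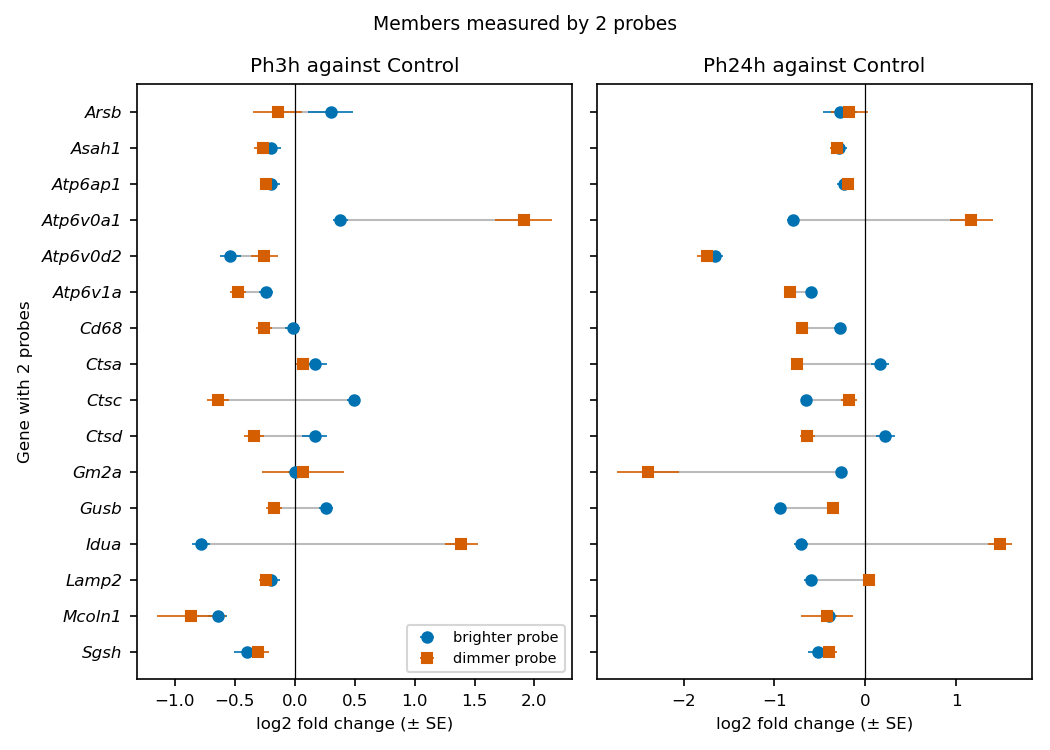
For the 16 genes with 2 probes, points give the log2 fold change with SE of the brighter (circle) and dimmer (square) probe at 3 h (left) and 24 h (right). The pairs of Idua, Ctsc and Atp6v0a1 span 0 where their calls are opposite.

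The lists of other lysosomal genes, 66 in all with 65 measured, were moved in both directions. At 3 h, 15 rose and 29 fell, with a median of -0.12, and at 24 h 11 rose and 40 fell, with a median of -0.31, beside 27.9% higher and 25.9% lower of all genes at 3 h and 29.9% and 33.2% at 24 h. With median scaling, 6 rose at 3 h and 5 at 24 h. Among the 20 further hydrolases, 5 rose and 13 fell at 3 h, against 2 and 15 at 24 h. Pla2g15, a lysosomal phospholipase, changed by 0.43 and -1.77, and Ids, which removes sulfate from heparan and dermatan sulfate, by 1.00 and -1.27. Galc, the galactosylceramidase, was lower, with changes of -0.73 and -1.18, and Acp5, the tartrate-resistant acid phosphatase, was higher at 3 h by 0.84. Ctso, a cathepsin, changed by -0.91 and -0.68, and Scpep1, a serine carboxypeptidase, by -0.80 and -0.37.

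Of the 24 further sorting and membrane genes, 4 rose and 12 fell at 3 h, against 5 and 16 at 24 h. For these and the pump counts that follow, the shares of all genes were 27.9% higher and 25.9% lower at 3 h. At 24 h they were 29.9% and 33.2%. Slc17a5, the sialic acid exporter, rose by 1.93 and 1.91, and Mcoln2, a relative of Mcoln1, by 0.79 and 1.98. Laptm4b changed by -1.46 and -1.64 and Abca2 by -1.07 and -0.50, and Sort1, a sorting receptor, was higher at 24 h by 1.01. Of 12 further pump genes measured, 3 rose and 2 fell at 3 h, against 1 and 6 at 24 h, led by Atp6v1b2 at -1.08 and Atp6v1c1 at -0.72. At 3 h, Atp6v1c1 (-0.35) and Atp6v0a2 (-0.32) were lower, and Atp6v1e1 was higher by 0.33.

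Among 9 regulators and protease inhibitors, 3 rose and 2 fell at 3 h, against 3 and 3 at 24 h, shares close to those of all genes. Stfa3, a stefin that inhibits cysteine cathepsins, had levels of -3.00, -3.02 and -3.14 in Control, -2.17, -1.97 and -2.56 in Ph3h and 4.69, 4.82 and 4.68 in Ph24h. Its level was 220.1-fold that of Control at 24 h (log2 7.78, adjusted p = 3.27e-08), but the mouse stefins are a family of close copies, and which of them the probe read is uncertain. Mitf, a relative of Tfeb, fell by 1.18 at 24 h, Tfec, another, changed by -0.82 and 0.74, and Cst6, a cystatin, by -1.06 and -1.63.

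Promoters were read for 38 of the 44 members from RefSeq's GRCm38.p6 table, with 250 bases before to 50 after each listed start, and the E-box CACGTG was counted, on both strands at once because it is its own reverse complement. It stood in 14 of 38 members (36.8%), in 10 of 47 other lysosomal genes with a promoter (21.3%) and in 2187 of 27025 genes of the table (8.09%). The longer TCACGTGA, which contains it, was in 6 members (15.8%), 7 of the other lysosomal genes (14.9%) and 304 of all genes (1.12%). The promoters of Lamp1, Mcoln1 and Atp6v1a are shown with these letters in capitals, Lamp1 because it holds 4 E-boxes, the other two because they hold the longer form and differ in call from Lamp1 at 24 h with the 75th percentile.
Lamp1, chr8:13158911-13159210 (+ strand): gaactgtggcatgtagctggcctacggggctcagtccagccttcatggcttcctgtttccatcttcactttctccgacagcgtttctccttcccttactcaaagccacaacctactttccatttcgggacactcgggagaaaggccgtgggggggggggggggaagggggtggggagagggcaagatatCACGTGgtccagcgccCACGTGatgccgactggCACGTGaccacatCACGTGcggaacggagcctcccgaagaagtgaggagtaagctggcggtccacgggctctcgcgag
Mcoln1, chr8:3500269-3500568 (+ strand): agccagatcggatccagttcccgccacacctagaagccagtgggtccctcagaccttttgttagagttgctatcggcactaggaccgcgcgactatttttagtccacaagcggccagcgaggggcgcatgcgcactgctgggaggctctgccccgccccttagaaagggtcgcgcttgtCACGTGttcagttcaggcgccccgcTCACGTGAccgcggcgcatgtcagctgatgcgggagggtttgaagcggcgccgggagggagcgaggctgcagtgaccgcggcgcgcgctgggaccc
Atp6v1a, chr16:44139210-44139509 (- strand): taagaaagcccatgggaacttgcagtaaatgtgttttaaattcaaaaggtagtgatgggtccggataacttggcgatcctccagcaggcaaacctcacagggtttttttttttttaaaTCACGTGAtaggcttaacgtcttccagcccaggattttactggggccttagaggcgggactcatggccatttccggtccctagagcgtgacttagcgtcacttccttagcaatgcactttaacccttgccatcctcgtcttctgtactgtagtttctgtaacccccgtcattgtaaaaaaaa

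The members with and without the E-box are given side by side. Of the 14 with it, 1 was higher, 9 were lower and 4 did not pass at 24 h, with median changes of -0.16 at 3 h and -0.39 at 24 h. Of the 24 without it, 2 were higher, 17 lower and 5 not passed, with medians of -0.15 and -0.41. The shares of all genes at 24 h were 29.9% called higher and 33.2% called lower. A match is only a description of the letters in this window.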

How the data were processed

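RNA of 9 cultures, 3 per group, was hybridised to Agilent arrays in one color. The scanner output deposited by the authors holds a background-subtracted intensity for every spot, from Feature Extraction 10.7.3.1, and a further deposited table holds log2 values from GeneSpring, with a scaling the methods do not name. Intensities were put on the log2 scale without flagged spots, averaged over the spots of a probe, and reduced by their array's 75th percentile over gene probes. Probes well above background on at least 1 array were kept (34381), and the probe of highest mean stood for each gene. Groups were fitted together with limma 3.58.1 in R 4.3.3, without covariates, and p-values were adjusted over 24101 genes. The probe fits were adjusted over 34381 probes. Replicates 1 and 2 of all groups were on slide 1, and replicate 3 on slide 2. The number of arrays limits the precision. The members and lists were chosen with earlier results of these data known. Per-array values are given, in each role group and comparison with Control, for the called members with the 2 largest rises and 2 largest falls, for those called in opposite directions, and for Tfeb, Lamp1 and Cd68. Named other lysosomal genes are the called ones of largest change in each list, except for a gene not reported here. Alternatives were other scalings, filters, probe rules, blocks, slide 1 alone, arrays left out, and the regression on time from the methods. The probe rule of the dimmest probe was added after the data were seen.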

Additional observations from a re-analysis of the deposited data

Results flagged for a closer look

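Changes at 3 h and at 24 h, both against the same Control arrays, were compared by testing Ph24h against Ph3h with limma, and 17 of the 23 members given by array passed at an adjusted p below 0.05, beside 20.3% higher and 24.0% lower of all genes. These 23 were chosen for large or opposite changes at 3 h and 24 h, so the count is a description and supports nothing. The change at 24 h was below that at 3 h by these differences on the log2 scale. For the proteases they were -1.21 for Lgmn, -1.14 for Ctsc and -0.86 for Ctsf, and for the sugar- and lipid-cleaving enzymes -1.20 for Gusb, -0.72 for Man2b1 and -0.58 for Lipa. The membrane proteins gave -0.41 for Lamp2 and -0.26 for Cd68, and the pump genes -1.18 for Atp6v0a1, -1.12 for Atp6v0d2 and -0.35 for Atp6v1a. Tfeb differed by -0.91 and Grn by -0.36. These are values of the brightest probe of each gene. Second probes of Ctsc and Lamp2 were called the other way, at 0.46 and 0.28, and that of Gusb did not pass, at -0.18. The change at 24 h was above that at 3 h by 2.16 for Ctsk, 0.80 for Neu1, 0.25 for Mcoln1 and 0.23 for Ctsl. The last 2 lost their call on leaving out any single array of Ph24h, and Ctsl also with the replicate block (adjusted p = 0.0655) or the slide as a block (adjusted p = 0.0514).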

How the results depend on the processing

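Counts of members called lower at 24 h stayed within 1.5 times their value under the alternatives run, and those called higher did not. With quantile normalization, 2 members were higher and 32 lower at 3 h (median log2 change -0.30), 2 higher at 24 h (median -0.51) and 7 higher in Ph24h against Ph3h (median -0.0227). Normexp with quantile normalization gave 2 higher, 31 lower and -0.31 at 3 h, with 9 other lysosomal genes higher, 2 higher and -0.49 at 24 h, and -0.0645 between the fed groups. The authors' value table, which lies close to quantile normalization and is not an independent alternative, gave 2 higher, 32 lower and -0.31, then 2 higher and -0.52, and 7 higher and -0.0253. Median scaling gave 2 higher at 3 h (other lysosomal genes 6, median -0.40), 1 higher at 24 h (others 5, median -0.89), and 2 higher and 29 lower between the fed groups (others 7 higher, median -0.42). With no filter, 2 members were higher in Ph24h than in Ph3h. On slide 1 alone 3 were higher at 3 h and 2 in Ph24h against Ph3h. The cause was not tested, except that slide 1 alone has fewer samples and no filter tests more genes (34623).

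Single genes turned their direction as follows. With quantile normalization Lgmn was at -0.0238 at 3 h and Lamp1 at -0.35 and -0.31 at 3 h and 24 h, with normexp at -0.0925, -0.31 and -0.37, and in the authors' table at -0.0237, -0.35 and -0.31. Median scaling turned Lamp1 (-0.0333 and -0.20), Neu1 at 24 h (-0.11), and Ctsl (-0.0339) and Mcoln1 (-0.0146) between the fed groups. The mean over probes turned Ctsc at 3 h (-0.0741), Idua (0.30 and 0.39) and Atp6v0a1 at 24 h (0.18). The dimmest probe turned Ctsc (-0.64) and Gusb (-0.17) at 3 h, Idua (1.39 and 1.48), Lamp2 (0.0385) and Atp6v0a1 (1.17) at 24 h, and Ctsc (0.46) and Lamp2 (0.28) between the fed groups.

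Leaving out 1 array at a time gave 5 to 7 members higher and 13 to 17 lower at 3 h, 4 higher and 28 to 30 lower at 24 h, and 2 to 4 higher and 16 to 19 lower between the fed groups. Same-numbered arrays showed no shared deviation from their group means (r from -0.057 to 0.041). With 3 arrays per group, this cannot decide whether equal numbers mark cultures of the same experiment. With the replicate block, 7 members were higher and 16 lower at 3 h, 4 and 30 at 24 h, and 3 and 17 between the fed groups, with the calls of Grn at 3 h and Ctsl between the fed groups lost. With the slide as a block these counts were 7 and 17, 4 and 30, and 3 and 18. The regression on time of the methods, rebuilt as an overall F test, passed 36 of the 44 members, beside 67.4% of all genes, and 23 beside 41.5% with R2 above 0.9.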
